A study of Homo sapiens with 8 samples.

Results

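The pairs described here join 2 genomic poly(A) sites of one gene that lie more than 500 and at most 2000 nt apart. They were chosen by rule and not by their values: in both deposited tables, a pair belongs here when both its proximal and its distal site are written as a chromosome, a position and a strand, and when the positions differ by more than 500 and at most 2000 nt. The MDA-LM2 table held 3269 such pairs of 27016, in 1563 genes, and the sgHNRNPC table held 4512 of 31148, in 1869 genes. Across both tables there were 5055 different pairs of 36868, and 2726 of them were measured in both. All other pairs of the tables join sites closer or farther apart, or name the annotated end of a transcript on at least 1 side.

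The study sequenced mRNA 3′ ends in 8 samples of human breast cancer cells, with 2 biological replicates in each of 4 groups. MDA-MB-231 is a triple-negative breast cancer line, labelled poorly metastatic, and MDA-LM2 is its derivative, labelled highly metastatic to lungs. The other groups were MDA-MB-231 cells that carry dCas9-KRAB, a dead Cas9 fused to a repressor domain, and a guide RNA: sgControl cells had a non-targeting guide and sgHNRNPC cells had a guide that lowers HNRNPC. MDA-LM2 is a single derivative line, so that what sets it apart from its parent cannot be told apart from what that line happens to carry, and all CRISPRi cells share the dCas9-KRAB vector.

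Most human genes end their mRNAs at more than 1 poly(A) site. Cleavage at a proximal site gives a short 3′ UTR, and cleavage at a distal site keeps the stretch between the sites, with any binding sites for microRNAs and RNA-binding proteins in it. HNRNPC is a nuclear protein that packages nascent RNA, binds runs of uridine, and is known to mask cryptic splice sites and poly(A) sites. Sites this far apart can lie in tandem within 1 last exon, and where both follow the stop codon the choice between them alters the untranslated tail and not the protein.

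The measured quantity was logAPAR, the log change of the proximal-to-distal ratio between the 2 groups of a comparison. A negative value means that reads moved toward the distal site, and a positive value means that they moved toward the proximal site. Only where both sites lie in the 3′ UTR does a move toward the distal site lengthen it. The base of the logarithm is not given in the sources used here, so values are given as logAPAR and not as folds. The deposited tables hold 1 logAPAR, a raw p and an adjusted p for each pair and no values of single samples. The depth and the spread between replicates are therefore unknown, and the errors below are standard errors (SE) implied by each logAPAR and its raw p, with 95% intervals from them. A pair was called when its raw p was under 0.01. This p comes from the authors' regression on 2 samples against 2 and may carry counting error alone. An exact permutation test over the samples could not be run from these tables and, at 2 against 2, could not reach 0.05, so values are given with SE and interval and calls by whether they passed the threshold.

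The study's own HNRNPC-bound sequences give examples of what the protein meets in these mRNAs. Of 98 binding-site oligos that the study designed from crosslinking data for its reporter assay, 95 matched a transcript of GENCODE 44, and 42 of them lay in a gene with such a pair. Of these 42 oligos, 40 lay wholly in the 3′ UTR of an annotated transcript and 23 held a run of at least 5 T. The study took its oligos from binding sites in 3′ UTRs, so the 40 follow from that design. The longest run of each ranged from 1 T in KLHL42 to 17 T in WSB2. Such runs were not particular to these genes: the longest of all matched oligos, 18 T, was in TMEM263, which had no such pair. The windows shown are that of PDLIM5, the only one of these genes with a called pair in either comparison, and those with a run of 10 or more T. Each is written 5′ to 3′ on the mRNA strand as DNA, with its longest run of T in capitals, at its GRCh38 position.
PDLIM5, chr4:94665739-94665768, + strand: atgaaattgagacTTTTTgtggttttctct
WSB2, chr12:118033535-118033564, - strand: TTTTTTTTTTTTTTTTTaacaatggtgtgc
CORO1C, chr12:108645215-108645244, - strand: TTTTTTTTTTTTTTaagccatgacatccca
TSPAN14, chr10:80519794-80519823, + strand: ttgagtaaTTTTTTTTTTTTTTaagattct
CDV3, chr3:133588797-133588826, + strand: gTTTTTTTTTTTTggtaatttttttatttg
NDUFS1, chr2:206123330-206123359, - strand: ttatgtggcTTTTTTTTTTTTataagttat
SELENOI, chr2:26394638-26394667, + strand: ttctgggtgTTTTTTTTTTTaaagtagcat
SAR1A, chr10:70150550-70150579, - strand: gttttcttaaTTTTTTTTTTcccctatttg

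The runs of these 8 windows spanned 5 T in PDLIM5 to 17 T in WSB2. The poly(A) sites themselves cannot be set beside these windows. The tables give positions with no genome build, and the 2 positions fell inside the GRCh38 bounds of their gene for only 11.5% of pairs in MDA-LM2 cells and 11.2% in the CRISPRi comparison. Positions below are therefore those of the tables, and no sequence was read from them. In the 34 genes with such an oligo in the MDA-LM2 table, the median logAPAR of the 69 pairs was -0.07, with 38 of them negative. In the 39 genes of the sgHNRNPC table, the median of the 94 pairs was 0.10, with 44 negative. A single pair among the 69 was called in MDA-LM2 cells, in PDLIM5, and none of the 94 was called in sgHNRNPC cells, and a raw p under 0.05 was found for 2 of the 69 and 0 of the 94. Over all pairs the called shares were 0.803% and 0.462%, 4.05% and 1.3% had a raw p under 0.05, and 51.0% and 55.2% were negative. So few calls among 69 and 94 pairs cannot be told apart from these shares.

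The pairs were spread over 23 chromosomes in each table, and nearly all came from protein-coding genes, 1558 of 1563 for MDA-LM2 and 1860 of 1869 for sgHNRNPC. The median distance between the sites was 1060 nt and 1077.5 nt, respectively. Neighbours, with no other measured genomic site of the gene between them, made up 64.9% of the pairs for MDA-LM2 and 60.3% for sgHNRNPC. The distance was no longer than the longest annotated 3′ UTR of the gene for 98.4% and 98.8% of the pairs with a UTR length. This compares lengths alone, and whether both sites of a pair lie in the UTR was not checked. These genes had long 3′ UTRs, with medians of 3738.5 nt and 3774.5 nt against 2606 nt and 2582 nt over all genes of the tables, and the rule on distance itself favours long UTRs. A gene gave 1 to 18 pairs for MDA-LM2 and 1 to 17 for sgHNRNPC. Pairs of 1 gene share sites: in every one of 5516 and 8490 trios of genomic sites, the logAPAR of the outer pair was the sum of those of the inner pairs within 0.001. Pairs of the same gene are therefore not independent measurements.

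In MDA-LM2 cells, the pairs as a whole were balanced between the sides, while those with an SE under 0.25 lay more often on the proximal side. Their median logAPAR was -0.01 over all 3269 pairs, with quartiles at -0.52 and 0.52, and 50.2% were negative, beside 51.0% over all 27016 pairs. In sgHNRNPC cells they leaned slightly to the distal site, as the whole table did: the median was -0.06, the quartiles were -0.53 and 0.39, and 54.5% were negative, beside a median of -0.08 and 55.2% over all 31148 pairs. Most single values were imprecise. The median implied SE was 0.83 for MDA-LM2 and 1.13 for sgHNRNPC, against 0.75 and 1.04 over all pairs, and an SE under 0.25 was reached by 159 and 106 of the pairs. Of those 159 precise pairs in MDA-LM2 cells 40.9% were negative, with a Wilson 95% interval of 33.5% to 48.6%, beside 52.3% of all 1716 pairs of the table with such an SE. The median logAPAR of the 159 was 0.05, with a 95% interval of 0.01 to 0.09. At an SE under 0.5 this lean was not seen: of 702 pairs 48.4% were negative (Wilson 95% interval 44.8% to 52.1%). These intervals treat pairs as independent, whereas the 159 pairs came from 112 genes and some share sites. Of the 106 in sgHNRNPC cells 56.6% were negative, beside 67.6% of all 1025.

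**Figure D1:**
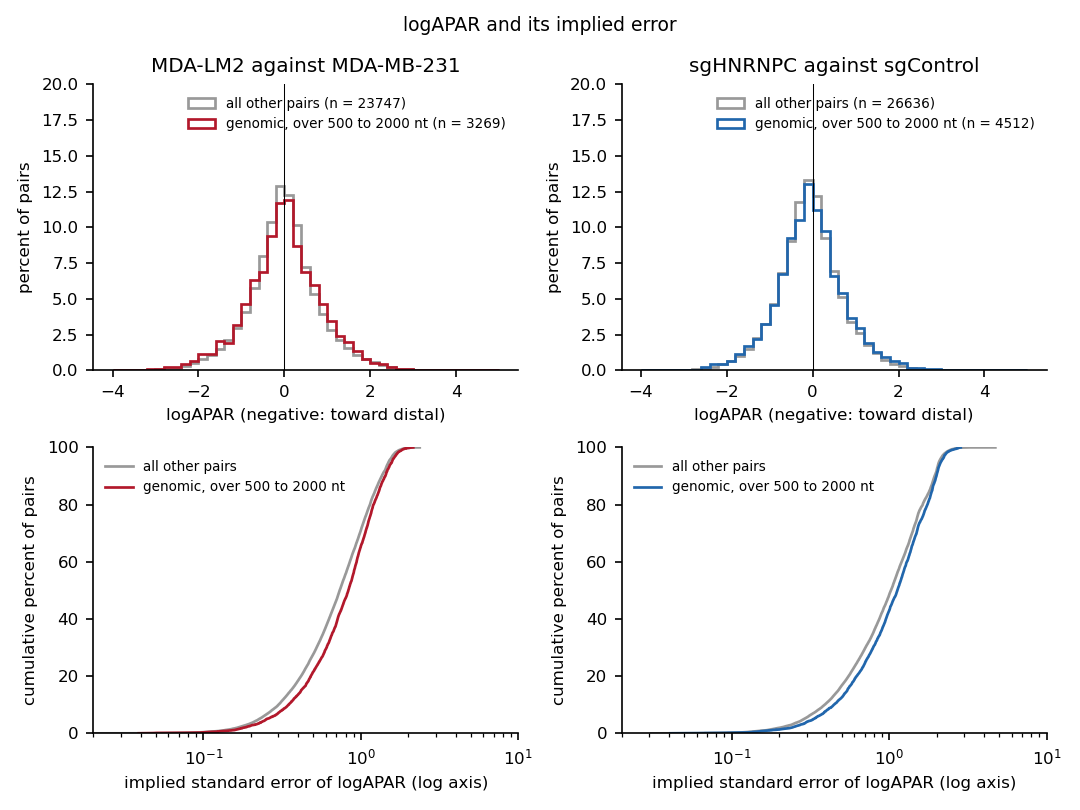
Upper panels: percent of pairs by logAPAR (x axis, log change of the proximal-to-distal ratio) for genomic pairs over 500 and up to 2000 nt apart, in colour, and for all other pairs, in grey, in each comparison. Lower panels: cumulative percent of pairs by implied standard error on a log axis; the coloured lines run to the right of the grey ones, with medians of 0.83 and 1.13 for the genomic pairs.

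A raw p under 0.01 was found for 26 of the 3269 pairs in MDA-LM2 cells (0.795%), where 0.803% of all pairs passed. Of these, 11 were negative and 15 positive, that is 0.336% and 0.459% of the pairs, beside 0.433% and 0.37% over the whole table. In sgHNRNPC cells 10 of the 4512 pairs were called (0.222%), where 0.462% of all pairs passed. Of these, 4 were negative and 6 positive, that is 0.0887% and 0.133%, beside 0.347% and 0.116% over the whole table. The negative share of the called pairs was therefore 42.3% for MDA-LM2, against 53.9% in its whole table. For sgHNRNPC it was 40%, against 75% in its whole table. At a raw p under 0.05 there were 123 pairs (3.76%, background 4.05%) in MDA-LM2 cells, 64 of them negative, and 37 pairs (0.82%, background 1.3%) in sgHNRNPC cells, 21 of them negative. Over all pairs, 563 of 1095 and 305 of 406 with such a p were negative. After adjustment over the whole table, 1 pair was under 0.05 in MDA-LM2 cells (background 0.0296%) and 3 were in sgHNRNPC cells (background 0.0899%).

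Other kinds of pair in the sgHNRNPC table held more of the negative calls. Among pairs of 2 annotated transcript ends, 25 of 31 called pairs were negative, and among pairs of a genomic site and a transcript end 68 of 86 were. Genomic pairs up to 500 nt apart gave 6 calls, 4 of them negative, and those over 2000 nt apart gave 11, with 7 negative. In MDA-LM2 cells the corresponding counts were 36 of 58, 58 of 101, 0 of 1 and 12 of 31. Negative calls in sgHNRNPC cells made up 0.404%, 0.452%, 0.266% and 0.18% of the pairs of these kinds, in the same order. They made up 0.0887% of the pairs described here. Precision differed as well: an SE under 0.5 was reached by 12.6% of the pairs described here and by 16.2% of all pairs in that comparison. The differences between these shares and those of the pairs described here, with 4 of 10 calls negative, were not tested.

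Within the window, distance made little difference to the median. In MDA-LM2 cells the median logAPAR was 0.01 up to 1000 nt, 0.00 above that and up to 1500 nt, and -0.05 above 1500 nt. Calls there were 11 of 1482, 13 of 1037 and 2 of 750 pairs, beside 0.803% of all pairs. In sgHNRNPC cells the medians were -0.05, -0.08 and -0.08, and 4 of 1973, 5 of 1486 and 1 of 1053 pairs were called, beside 0.462% of all pairs. At the lower edge, the 53 MDA-LM2 pairs within 10 nt inside the limit had a median of 0.03 and the 49 within 10 nt outside it -0.08. The sgHNRNPC table gave -0.04 for the 88 inside and -0.10 for the 76 outside. At the upper edge, the 14 MDA-LM2 pairs within 10 nt inside had a median of -0.33 and the 9 outside 0.03. For sgHNRNPC the 17 inside had 0.20 and the 15 outside 0.09.

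**Figure D2:**
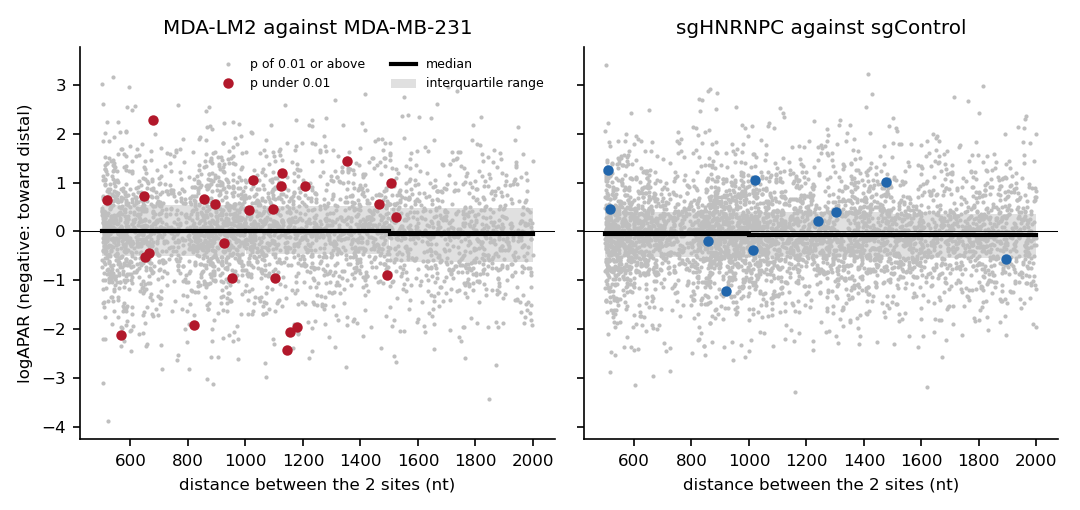
logAPAR (y axis) against the distance between the 2 sites in nt (x axis) for each pair; coloured points have a raw p under 0.01, black lines are medians and shaded bands the interquartile range within 3 distance ranges. The medians stay between -0.08 and 0.01, and called pairs lie on both sides of 0 at most distances.

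The pair with the lowest p in MDA-LM2 cells belonged to SET, which encodes a histone chaperone and inhibitor of protein phosphatase 2A. Its proximal site at position 131456290 of chromosome 9 was used more against both distal sites. Against the site 1011 nt downstream the logAPAR was 0.44 (SE 0.10, 95% interval 0.25 to 0.63), and this pair was the only one of the MDA-LM2 table here with an adjusted p under 0.05 (p = 5.68e-06 and adjusted p = 0.0307 by the authors' regression). Against the site 1525 nt downstream it was 0.30 (SE 0.08). The 2 distal sites, 514 nt apart, had a logAPAR of -0.13 (SE 0.10), so the interval of their change included 0. In sgHNRNPC cells the same 2 pairs had values of 0.06 (95% interval -0.21 to 0.33) and 0.09 (95% interval -0.15 to 0.34).

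The next was COL1A1, the alpha 1 chain of type I collagen. Its sites 1127 nt apart had a logAPAR of 1.20 in MDA-LM2 cells (SE 0.29), toward the proximal site. In sgHNRNPC cells the value was 0.13 with an SE of 1.71 and an interval of -3.21 to 3.47. SERINC3, a multipass membrane protein, followed with 0.73 (SE 0.20).

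Signalling genes stood on both sides among the calls of MDA-LM2 cells. PPP2R5E, a regulatory subunit of protein phosphatase 2A, had a logAPAR of 0.93 (SE 0.32). EGFR, the epidermal growth factor receptor, went to the distal of 2 sites 1493 nt apart, with -0.89 (SE 0.34), and PMEPA1, a membrane protein that restrains TGF-beta signalling, to the distal of 2 sites 1102 nt apart, with -0.96 (SE 0.31). MAPK1IP1L, whose product is named as an interactor of a MAP kinase, had -0.95 (SE 0.35). None of these had an adjusted p under 0.05.

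Of genes acting in the nucleus and in cell division, BUB3, a spindle checkpoint protein, was called in both directions. Its site at position 124924265 of chromosome 10 was lower against the site 855 nt upstream (logAPAR 0.67, SE 0.25) and against the site 665 nt downstream (-0.45, SE 0.16). The opposite signs describe 1 site that was lower against sites on both sides of it. In sgHNRNPC cells these pairs had -0.57 (SE 0.44) and 0.13 (SE 0.22), and both intervals included 0. ZBTB7A, a transcriptional repressor, had 0.56 (SE 0.19). MCM8, a helicase subunit of homologous recombination, had 2.29 (SE 0.85). ING1, a reader of histone methylation, had -1.92 (SE 0.68), and CREBL2, a leucine zipper protein, had -2.13 (SE 0.80).

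The remaining calls in MDA-LM2 cells came from traffic, protein turnover and surface proteins. VPS53, a subunit of a Golgi tethering complex, had 0.94 (SE 0.29), WDR73, a WD repeat protein, 1.45 (SE 0.45), and DCBLD2, a transmembrane protein of the neuropilin type, 1.05 (SE 0.40). CALU, a calcium-binding protein of the secretory pathway, had -0.52 (SE 0.18). NAA50, an N-terminal acetyltransferase, had -2.06 (SE 0.72), USP49, a deubiquitinase, -1.96 (SE 0.76), and ANKRD13C, an ankyrin repeat protein, -2.44 (SE 0.92). The 6 called pairs with an SE above 0.5, those of MCM8, ING1, CREBL2, NAA50, USP49 and ANKRD13C, were also the 6 farthest from 0. A pair with a larger SE needs a larger logAPAR to be called, so the threshold itself favours this. The call nearest to 0 was -0.25, in KPNB1.

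PDLIM5, a scaffold protein with PDZ and LIM domains that binds actinin, is a gene the study discusses. It gave 6 pairs in each table, 4 of them shared. In MDA-LM2 cells the pair of sites 894 nt apart, at positions 95586055 and 95586949 of chromosome 4, had a logAPAR of 0.55 (SE 0.19, 95% interval 0.19 to 0.92), toward the proximal site. The other 5 pairs had values from -0.62 to 1.26 and raw p values of 0.34 or more. In sgHNRNPC cells the 894-nt pair had 0.11 (SE 0.54, 95% interval -0.94 to 1.17), and 5 of the 6 pairs were positive with no raw p under 0.5. TIA1, a U-binding regulator of splicing and translation, had 1 pair for MDA-LM2 and 2 for sgHNRNPC, with SEs of 1.00 to 1.73. AGO2, the slicer Argonaute, had 2 pairs in MDA-LM2 cells with 0.71 (SE 0.75) and 0.86 (SE 0.52), which in sgHNRNPC cells were -0.59 (SE 0.62) and -0.26 (SE 0.41). All intervals of TIA1 and AGO2 included 0. HNRNPC, PABPC4, PABPN1, KAT14 and ELAVL1 had no pair of this kind.

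The clearest values in sgHNRNPC cells were those of HSP90AA1, the stress-inducible cytosolic HSP90 chaperone. Its site at position 102549565 of chromosome 14 was lower against the site 1016 nt downstream (logAPAR -0.37, SE 0.07) and lower against the site 1242 nt upstream (0.22, SE 0.05). By the authors' regression, the adjusted p = 0.000176 for the first and adjusted p = 0.04 for the second. As in BUB3, the 2 calls of opposite sign share 1 middle site. In MDA-LM2 cells the first pair had -0.12 (SE 0.05) and the second 0.05 (SE 0.05). The longest annotated 3′ UTR of HSP90AA1 is 1553 nt, while its outermost measured sites in the tables lay 4809 nt apart, so not all of them can lie in that UTR. Whether reads primed on internal A-rich stretches contribute to these sites was not tested.

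The third pair with an adjusted p under 0.05 was that of GNB5, a G protein beta subunit, at 509 nt, just inside the lower limit of the window. It had a logAPAR of 1.25 in sgHNRNPC cells (SE 0.30, adjusted p = 0.0341 by the authors' regression), toward the proximal site, and -0.63 in MDA-LM2 cells (SE 0.43). The 2 intervals, 0.67 to 1.84 and -1.48 to 0.22, did not overlap, and the difference itself was not tested.

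SERBP1, an mRNA-binding protein found on ribosomes, and NUCKS1, a chromatin-associated nuclear protein, went to the distal site in sgHNRNPC cells. SERBP1 had -0.57 across 1896 nt (SE 0.16), and in the same cells 13 of its 17 pairs were negative. NUCKS1 had -0.20 across 859 nt (SE 0.06). HSBP1, which binds the heat shock transcription factor, had 0.41 (SE 0.12), and POLR2D, a subunit of RNA polymerase II, 1.04 (SE 0.40), both toward the proximal site. In MDA-LM2 cells SERBP1, HSBP1 and POLR2D had -0.15 (SE 0.14), 0.21 (SE 0.16) and -0.42 (SE 0.68), with 0 inside each interval.

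**Figure D3:**
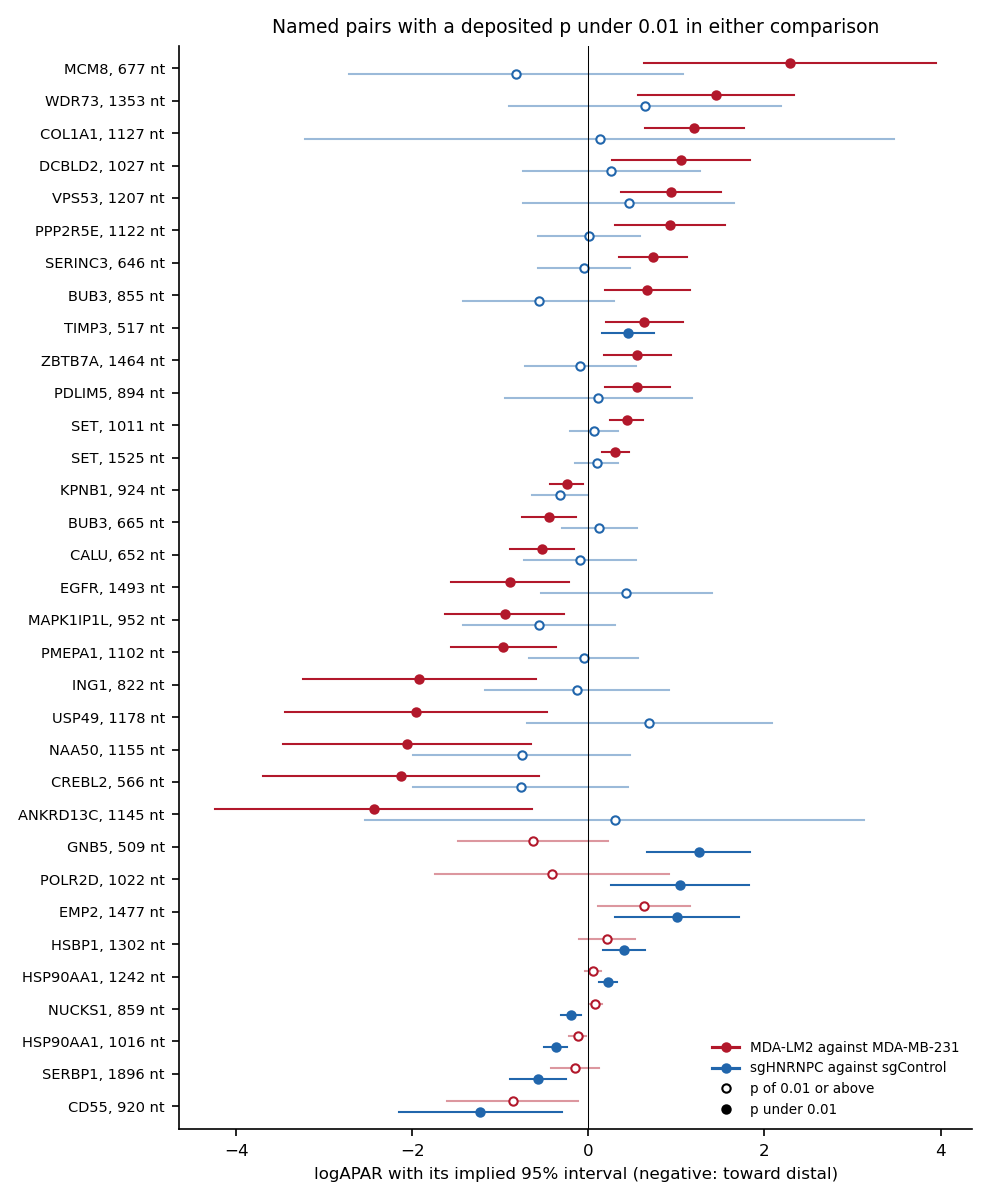
logAPAR (x axis) with its implied 95% interval for 33 of the 35 pairs with a raw p under 0.01 in either comparison, one pair per line, with the gene and the distance between the sites. Red shows MDA-LM2 against MDA-MB-231 and blue sgHNRNPC against sgControl; filled points have a raw p under 0.01, and TIMP3 is the only line with both filled.

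The 2 comparisons share no samples, so their values for a pair can be set side by side. Of the 2726 pairs measured in both, 1377 had the same sign (50.5%), beside 51.2% of all 21296 pairs in both tables. Spearman's rho across the 2726 pairs was 0.01, over pairs that share sites within genes. In the 427 pairs with an SE under 0.5 in both tables the same sign was seen in 52.0%, beside 53.2% of all 3956 such pairs, with a Spearman's rho of 0.06. Among the 72 pairs with an SE under 0.25 in both, 44 had the same sign (61.1%, Wilson 95% interval 49.6% to 71.5%), and rho was 0.21. A raw p under 0.05 in both tables was found for 6 pairs, of which 5 had the same sign, where 37 of 51 such pairs of the whole tables did.

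TIMP3, a matrix-bound inhibitor of metalloproteinases, was the only pair called in both. Its sites at positions 33256564 and 33257081 of chromosome 22, 517 nt apart, had a logAPAR of 0.64 in MDA-LM2 cells (SE 0.22) and 0.45 in sgHNRNPC cells (SE 0.15). For the proximal of these sites and the one 758 nt upstream of it, logAPAR was -0.56 (SE 0.23) in MDA-LM2 cells and -0.37 (SE 0.32) in sgHNRNPC cells. EMP2, an epithelial membrane protein, had values toward the proximal of 2 sites 1477 nt apart, 0.63 (SE 0.27) and 1.00 (SE 0.36). CD55, which protects cells from complement, had values toward the distal of 2 sites 920 nt apart, -0.86 (SE 0.38) and -1.23 (SE 0.47). Both of these pairs were called in sgHNRNPC cells and had a raw p under 0.05 without a call in MDA-LM2 cells.

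KPNB1, the nuclear import receptor importin beta, had -0.25 (SE 0.10) and -0.32 (SE 0.16) across 924 nt. The same proximal site, at position 45760292, had -0.27 (SE 0.12) in sgHNRNPC cells against the site 1744 nt downstream, and -0.07 (SE 0.11) in MDA-LM2 cells, where the interval included 0. The 1016-nt pair of HSP90AA1, given above, was the fifth with like signs. NUCKS1 had values of opposite sign, 0.08 in MDA-LM2 cells (SE 0.04) and -0.20 in sgHNRNPC cells. Its 2 intervals, 0.00 to 0.16 and -0.32 to -0.08, did not overlap, and the difference was not tested. No adjusted p of these 6 pairs was under 0.05 in MDA-LM2 cells, and only that of HSP90AA1 was in sgHNRNPC cells.

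**Figure D4:**
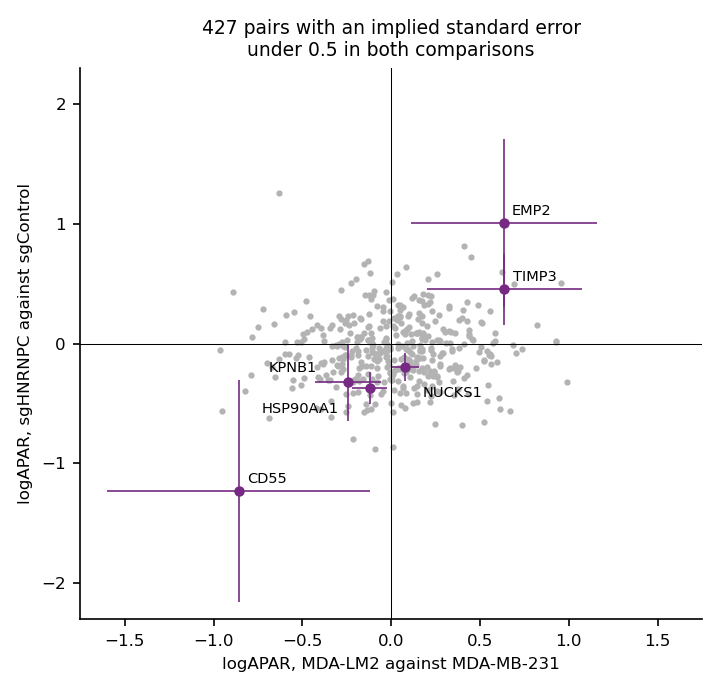
logAPAR in MDA-LM2 against MDA-MB-231 cells (x axis) and in sgHNRNPC against sgControl cells (y axis) for the 427 pairs with an implied SE under 0.5 in both. Purple points with implied 95% intervals are the 6 pairs with a raw p under 0.05 in both; the grey cloud is centred near 0, with a Spearman's rho of 0.06 over the 427 pairs.

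**Figure D5:**
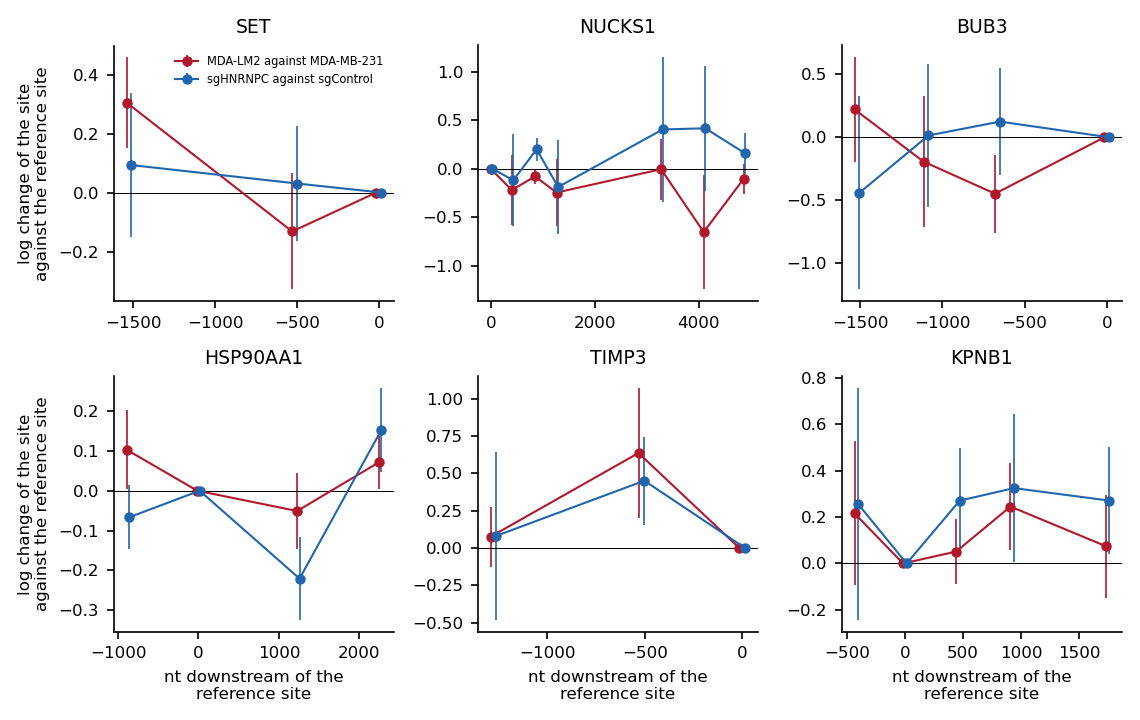
Log change of each genomic site (y axis) against 1 reference site of the gene, by its distance downstream of that site in nt (x axis), in 6 genes, with implied 95% intervals; sites with an SE of 0.45 or more are left out and the reference, at 0, is the site with the smallest errors. The middle site of BUB3 in MDA-LM2 cells and that of HSP90AA1 in sgHNRNPC cells, 1242 nt downstream, lie below their neighbours, while the TIMP3 site 517 nt upstream of its reference lies above them in both comparisons.

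Gene lists chosen by function can be read only against the whole tables, where 0.803% of pairs were called for MDA-LM2 and 0.462% for sgHNRNPC, so that lists of 21 to 250 pairs would hold about 1 call or fewer at these shares. The median over all pairs was -0.01 and -0.08, with 51.0% and 55.2% negative. Of the cleavage and polyadenylation factors, 6 of 18 genes measured for MDA-LM2 and 8 of 19 for sgHNRNPC had a pair of this kind, and none of their 21 and 24 pairs was called. Their medians were -0.24 in both tables. CDK12, a kinase that acts on elongating polymerase, had 1.69 (SE 0.83) in MDA-LM2 cells, CSTF2T, a cleavage stimulation factor, had 1.84 (SE 0.91) in sgHNRNPC cells, and CPSF2, a cleavage factor subunit, had 12 pairs in MDA-LM2 cells with values from -2.45 to 1.62 and all intervals including 0. Splicing and 3′ UTR binding proteins had 106 pairs of 40 genes and 118 pairs of 39 genes, also without a call, numbers too small to set them apart from those shares. Their lowest p values in MDA-LM2 cells were those of SRSF1, a splicing factor of the SR family (-1.53, SE 0.67), and CPEB4, a cytoplasmic polyadenylation protein (-1.79, SE 0.85). SYNCRIP, an hnRNP-like protein, had 1.13 (SE 0.58) in sgHNRNPC cells.

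Among actin, adhesion and matrix genes, 3 of 75 pairs were called in MDA-LM2 cells, all positive and all named above, namely COL1A1, PDLIM5 and TIMP3, where 0.37% of all pairs had a positive call. The difference was not tested. The list's median was 0.07 and 37 of its pairs were negative. In sgHNRNPC cells 1 of 77 pairs was called, in TIMP3. Transcription factors and chromatin genes had 3 positive calls of 162 pairs in MDA-LM2 cells, where 0.37% of all pairs had a positive call. These were in ZBTB7A and in the SET pairs given above, which share 1 proximal site. ING1 and CREBL2, given above with negative calls, were not in the list, so its calls do not give the direction of all such genes. In sgHNRNPC cells the list had 1 negative call of 250, in NUCKS1, where 0.347% of all pairs had a negative one. Kinases and phosphatases had 1 call of 104 pairs in MDA-LM2 cells and none of 153 in sgHNRNPC cells. The call was MAPK1IP1L, which the name pattern of the list took in though it is no kinase. The list left out PPP2R5E, a phosphatase subunit, and EGFR, a receptor kinase, whose calls in MDA-LM2 cells are given above. The median of this list was 0.22 in MDA-LM2 cells, with 36 of 104 pairs negative, and -0.10 in sgHNRNPC cells. CSNK1A1, a casein kinase, had -1.43 (SE 0.64) in MDA-LM2 cells, and DUSP4, a MAP kinase phosphatase, had -0.28 (SE 0.14) in sgHNRNPC cells against 0.26 (SE 0.15) in MDA-LM2 cells.

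Small GTPases and membrane traffic genes had 1 call of 113 pairs in MDA-LM2 cells, VPS53, and none of 171 in sgHNRNPC cells. RAB33B, a Golgi GTPase, had -2.81 (SE 1.36) and CLTC, the clathrin heavy chain, 2.22 (SE 1.03), both in MDA-LM2 cells. RAB8A, a GTPase of exocytosis, had -0.56 (SE 0.25) in sgHNRNPC cells. Ubiquitin and proteasome genes had 1 call of 150 pairs in MDA-LM2 cells, USP49, and of the 7 pairs with a raw p under 0.05 there, 6 were negative, where 4.05% of all pairs had such a p, 563 of them negative and 532 positive. RNF217, a ubiquitin ligase (-2.60, SE 1.23), and USP31, a deubiquitinase (-1.81, SE 0.81), were among the 6. In sgHNRNPC cells the list had no call among 215 pairs, and UBE2R2, a conjugating enzyme, had 0.40 (SE 0.18).

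Ribosome and translation genes had no call among 59 and 77 pairs. EIF2AK2, the double-stranded RNA-activated kinase, had 0.56 (SE 0.24) and RPS2, a small-subunit protein, -2.70 (SE 1.35) in MDA-LM2 cells. RPL28 and RPL4, large-subunit proteins, had -0.30 (SE 0.14) and 1.78 (SE 0.86) in sgHNRNPC cells. The longest annotated 3′ UTRs of RPS2, 740 nt, and RPL4, 1392 nt, are shorter than their distances of 1067 nt and 1564 nt, so that not both sites of either pair can lie in them.

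The genes with the most pairs were IPO9, SERBP1, BBX, CPD and DNAJC10, with 15 to 18 each over both tables. IPO9, an import receptor, had 13 of 18 pairs negative in MDA-LM2 cells, with values from -2.17 to 1.80 and a lowest raw p of 0.106. BBX, an HMG-box protein, had 8 of 16 negative for MDA-LM2 and 10 of 16 for sgHNRNPC. CPD, a carboxypeptidase of the secretory pathway, and DNAJC10, a disulfide reductase of the endoplasmic reticulum, had 5 of 11 and 5 of 10 negative in MDA-LM2 cells. The 5 genes had no called pair in MDA-LM2 cells, and the 1 call for sgHNRNPC was the SERBP1 pair given above. Of the 688 genes with 2 or more pairs in the MDA-LM2 table, 107 had all pairs negative, 116 all positive and 465 both. In the sgHNRNPC table the 967 such genes divided into 194, 127 and 646.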

How the data were processed

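Per the labels and the study's methods, mRNA 3′ ends were sequenced with QuantSeq, UMI-tools was used, and Salmon 0.14.1 assigned reads to unique 3′ ends. The authors then fitted APAlog, a multinomial logistic regression over all pairs of poly(A) sites of a gene, and deposited for each pair the logAPAR (a log ratio), its raw p-value and the adjusted one. The deposited adjusted values equal the Benjamini-Hochberg values over all pairs of a table within 0.001. These columns are the authors' own comparisons; the files hold nothing else. Normalized abundances and any term for the spread between replicates are not analysed here, so a p may carry counting error alone.

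Here pairs were selected by distance, and an SE was taken as |logAPAR| divided by the two-sided normal quantile of p (scipy 1.17.1, pandas 2.3.3, numpy 2.4.6 and matplotlib 3.10.9 under Python 3.11.15). The step was run on simulated data whose p came from the same normal formula. That checks the arithmetic alone, and whether the authors' p values are of this kind was not tested. UTR lengths and oligo positions came from GENCODE 44 on GRCh38. Pairs named are those with p under 0.01 (at most 25 per table), p under 0.05 in both tables (at most 10), those of 8 genes of the study, up to 4 per gene list, and the 5 genes with most pairs. Other sites beside a named pair are given to place it, and 1 gene that the rule names is not reported here. The members and lists were chosen with earlier results of these data known. No test was run here. The alternatives were other thresholds, 1 pair per gene, neighbouring sites, smaller SE and narrower windows. The strand of 2 pairs per table differed between columns, and they were kept.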

Additional observations from a re-analysis of the deposited data

How the results depend on the processing

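No paired analysis was possible because each deposited value pools all samples of a comparison, and for the same reason no replicate could be left out. The number of called pairs changed with the threshold and with the choice of pairs kept. In MDA-LM2 cells, where 26 were called, there were 123 at a raw p under 0.05, 4 at a raw p under 0.001, 1 at an adjusted p under 0.05, 6 with 1 pair per gene, 16 among neighbouring sites, 11 up to 1000 nt apart and 15 farther apart. In sgHNRNPC cells, where 10 were called, the counts were 37, 6, 3, 4, 6, 4 and 6, and 5 with an absolute logAPAR of at least 0.5. The negative share of called pairs was 0% at a raw p under 0.001 and at an adjusted p under 0.05 in MDA-LM2 cells, and 16.7% among neighbouring sites in sgHNRNPC cells; these rest on 4, 1 and 6 pairs. The negative share of all pairs was 48.4% with an SE under 0.5 in MDA-LM2 cells, and 53.0% among neighbouring sites and 56.5% with an SE under 0.5 in sgHNRNPC cells. The same sign in both tables was seen in 83.3% of the 6 pairs with a raw p under 0.05 in both. The cause of these changes beyond the smaller number of pairs was not tested. The other 33 of 55 alternatives moved a value by less than its 95% interval, or a count by less than 1.5 times. The unknown depth limits single pairs: an implied SE of 0.5 or more was found for 78.4% of pairs for MDA-LM2, where 5 more had none, and for 87.4% for sgHNRNPC.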
